A study of Mus musculus with 27 samples.

Results

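The nuclear genes of the respiratory chain were followed through knockouts of m6A readers and of the m6A writer in mouse embryonic stem cells, oocytes and round spermatids. The genes were chosen by symbol alone: names beginning Nduf with a subunit letter (complex I), Sdha to Sdhd (complex II), Uqcr (complex III), Cox4 to Cox8 (complex IV) and Atp5 (ATP synthase, or complex V), with pseudogene names left out. The rule took 83 of the 20847 gene symbols in the 4 count tables: 37 for complex I, 4 for complex II, 8 for complex III, 17 for complex IV and 17 for ATP synthase. Ndufa4 is counted under complex I by its name, although its protein is now regarded as a subunit of complex IV. Cox7a2l, a factor that joins complexes into supercomplexes, and the assembly-related Atp5s and Atp5sl were also taken by name.

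Complexes I to IV pass electrons from NADH and succinate to oxygen in the inner mitochondrial membrane and, except for complex II, pump protons across it, and ATP synthase uses that gradient to make ATP. Most subunits are encoded in the nucleus, and several small complex IV subunits come as a widely used form and a second form kept for certain tissues, such as Cox6b2, Cox7b2 and Cox8c, which are best known from testis. N6-methyladenosine (m6A) is written on mRNA by a complex around Mettl3 and read in the cytoplasm by Ythdf1, Ythdf2 and Ythdf3, which are linked to translation and decay of the marked mRNA.

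The stem cells were of the KH2 line (C57BL/6 x 129/Sv) and were profiled from polyadenylated RNA as Ythdf1-/-, Ythdf2-/-, Ythdf3-/-, Ythdf1, Ythdf2 and Ythdf3 triple knockout, Mettl3-/- and wild type, with 2 libraries in each group. Germinal vesicle (GV) oocytes, which are fully grown and arrested before the first meiotic division, came from Mettl3f/f Zp3-Cre+ females (conditional knockout, 3 libraries) and Mettl3f/f Zp3-Cre- females (control, 4 libraries). Both groups carried the floxed alleles on a BDF1 X C57BL/6 X Jax#003651 background, the Zp3 promoter drives Cre in growing oocytes, and each library pooled the oocytes of 1 mouse. Post-GV oocytes, as the labels name them, came from Ythdf2-/- females (2 libraries) and Ythdf2+/- females (3 libraries) of a CB6F1 X C57BL/6 cross. Sorted round spermatids, the haploid cells that follow meiosis in the male, came from Ythdf2-/- males (2 libraries) and a Ythdf2+/+ male (1 library) of the same kind of cross. Ages, the clonal origin of the stem cell lines and the deleted parts of the Ythdf genes were not given in the sources used here.

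Stem cell libraries held 612598 to 1111764 counts, far fewer than GV oocyte libraries (6484397 to 18181397), post-GV oocyte libraries (12409822 to 25015081) and spermatid libraries (18843689 to 32759740), so stem cell values carry the largest counting error. Mettl3 stood at 16.6 ± 2.01 CPM (counts scaled to library size) in Mettl3-/- stem cells and 139 ± 2.29 CPM in wild type (SD, n = 2 each), and at 1.91 ± 1.37 CPM in conditional knockout GV oocytes (SD, n = 3) and 27.2 ± 11.7 CPM in controls (SD, n = 4). Transcript levels of Ythdf1, Ythdf2 and Ythdf3 did not fall by the test in their own knockouts and, with the deleted parts not given, check nothing. The embryonic stem cell, oocyte and round spermatid marker lists were detected in their own cells. Of the 83 genes, 80 passed the filter on low counts in stem cells, 80 in GV oocytes, 81 in post-GV oocytes and 81 in spermatids, and these are the genes tested. The untested ones were low: Cox8c had 1 to 6 counts in stem cells, Cox7a1 had 1 to 6 and Ndufa4l2 2 to 23 in GV oocytes, Cox7b2 had 0 to 14 and Cox8c 1 to 9 in post-GV oocytes, and Cox4i2 and Cox7a1 had 0 to 8 in spermatids. Ndufa11 and Cox6a2 in stem cells, Cox7b2 in GV oocytes and the mitochondrially encoded subunits were not analysed here.

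The promoters of some genes named below are shown first, as 300 bases (250 before and 50 after the start) from RefSeq on GRCm38.p6, 5′ to 3′ on the gene's own strand. They set the widely used Cox6b1 and Cox7b beside their testis-type forms Cox6b2 and Cox7b2, and add Sdhb, a complex II subunit that was higher in Mettl3-/- stem cells, and Ndufs4, a complex I subunit that was lower in Ythdf2-/- and triple knockout stem cells. Capitals mark a match, on either strand, to the NRF1 core GCGCATGC, the ETS core CCGGAAG or the YY1 motif AAGATGGCG, the cores of factors known to act at many respiratory genes. The windows are chr7:30626065-30626364 (minus strand) for Cox6b1, chr7:4753045-4753344 (minus) for Cox6b2, chrX:106015450-106015749 (plus) for Cox7b, chr5:71548156-71548455 (minus) for Cox7b2, chr4:140961021-140961320 (plus) for Sdhb and chr13:114388045-114388344 (minus) for Ndufs4.
Cox6b1: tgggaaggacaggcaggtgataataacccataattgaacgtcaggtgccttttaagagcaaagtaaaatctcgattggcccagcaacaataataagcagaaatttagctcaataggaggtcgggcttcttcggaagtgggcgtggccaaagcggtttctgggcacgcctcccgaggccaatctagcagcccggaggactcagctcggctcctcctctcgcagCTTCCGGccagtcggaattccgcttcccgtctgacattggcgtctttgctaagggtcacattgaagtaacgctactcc
Cox6b2: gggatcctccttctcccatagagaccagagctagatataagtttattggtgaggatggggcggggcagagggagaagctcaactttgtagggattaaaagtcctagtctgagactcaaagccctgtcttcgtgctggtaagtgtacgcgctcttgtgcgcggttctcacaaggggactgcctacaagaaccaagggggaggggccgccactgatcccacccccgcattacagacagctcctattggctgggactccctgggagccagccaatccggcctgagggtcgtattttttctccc
Cox7b: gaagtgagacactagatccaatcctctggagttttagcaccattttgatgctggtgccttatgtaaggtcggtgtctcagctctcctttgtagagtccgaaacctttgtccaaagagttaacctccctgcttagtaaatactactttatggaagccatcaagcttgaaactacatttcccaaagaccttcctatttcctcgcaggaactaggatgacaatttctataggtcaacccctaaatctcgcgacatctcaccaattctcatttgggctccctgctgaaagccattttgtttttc
Cox7b2: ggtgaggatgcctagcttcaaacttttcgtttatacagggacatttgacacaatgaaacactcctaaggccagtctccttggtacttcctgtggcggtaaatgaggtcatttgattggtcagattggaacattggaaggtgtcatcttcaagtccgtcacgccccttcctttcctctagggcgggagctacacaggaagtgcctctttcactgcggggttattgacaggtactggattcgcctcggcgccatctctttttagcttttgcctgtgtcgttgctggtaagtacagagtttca
Sdhb: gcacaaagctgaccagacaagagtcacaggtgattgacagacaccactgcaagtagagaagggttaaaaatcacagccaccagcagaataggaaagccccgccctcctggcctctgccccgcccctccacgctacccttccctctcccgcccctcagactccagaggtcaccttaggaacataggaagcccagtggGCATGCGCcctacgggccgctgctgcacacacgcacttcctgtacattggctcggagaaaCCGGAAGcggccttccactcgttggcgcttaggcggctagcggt
Ndufs4: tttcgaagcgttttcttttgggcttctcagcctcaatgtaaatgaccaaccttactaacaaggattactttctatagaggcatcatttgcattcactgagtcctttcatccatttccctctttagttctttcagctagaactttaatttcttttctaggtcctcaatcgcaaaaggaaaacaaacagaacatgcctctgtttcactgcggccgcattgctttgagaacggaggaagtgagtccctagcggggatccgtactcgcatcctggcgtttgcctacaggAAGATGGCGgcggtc

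The Cox6b1 window held an ETS core, and the window of its testis-type partner Cox6b2 held none of the motifs. Neither Cox7b nor Cox7b2 had a match, Sdhb had an NRF1 core and an ETS core, and Ndufs4 had a YY1 motif just after its start. A promoter was found for 68 of the 83 genes. Among these, 10 (14.7%) held the NRF1 core, against 3.05% of all 27025 promoters in the table, 16 (23.5%) held the ETS core, against 9.93%, and 8 (11.8%) held the YY1 motif, against 1.64%. The respiratory promoters also had a median of 19 CpG dinucleotides, against 8 over all promoters, and each of the 3 motifs itself contains a CpG. Each motif was counted on its own, and a match is only a match of letters.

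The genes were short. Their median coding transcript was 870 bases with 4 exons, against 2913 bases and 8 exons in other protein-coding genes of the tables. An internal exon over 400 bases, a feature often linked to m6A, was present in 3 of 82 annotated genes (3.66%), namely Atp5d, Atp5f1 and Ndufv3, against 18.5% of other protein-coding genes. Of the 83, Cox7b, Ndufa1 and Ndufb11 lie on the X chromosome. Counts of Atp5h, Atp5l, Atp5o, Ndufs3 and Uqcrb are uncertain, since each has a near-identical copy or an overlapping gene record that could take its reads, and 26 genes share exon bases with a gene on the opposite strand, with strand use in counting not given.

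In Mettl3-/- stem cells, 12 respiratory genes rose and 5 fell against wild type. Both directions stood side by side within complexes I and IV, while every called gene of complex II, complex III and the Atp5 names rose. The changes were small. The largest called shifts were falls of the testis-type forms Cox6b2 and Cox7b2, the latter on few counts. In complex IV, Cox4i1, Cox5a, Cox6c and Cox8a rose, and none of them is the partner of either form. A gene is called changed where edgeR's quasi-likelihood test gave a Benjamini-Hochberg adjusted p under 0.05 over all genes tested. By that rule 21.2% of the respiratory genes were called, against 30.4% of all genes (15.2% up and 15.1% down). The median log2 change over the respiratory genes was 0.05, against 0.00 over all genes, and was -0.01 without Mettl3-/- library A.

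**Figure D1:**
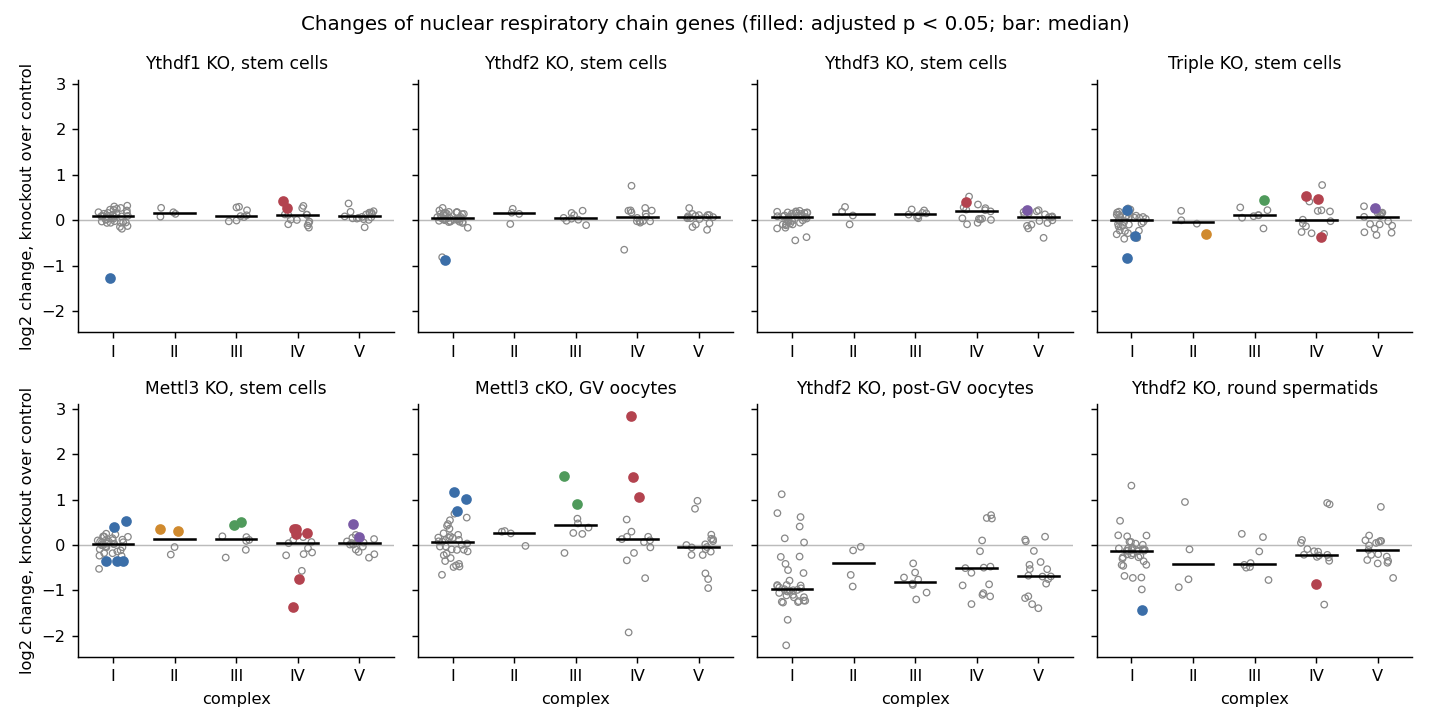
Log2 change, knockout over its own controls, of every tested respiratory gene in 8 comparisons, with genes in columns by complex. Filled points were called at adjusted p under 0.05 and open points were not, and each bar is the median of a complex; called genes stood on both sides of 0 in Mettl3-/- and triple knockout stem cells, all 8 called genes stood above 0 in Mettl3 conditional knockout GV oocytes, and none was called in post-GV oocytes.

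In complex I, Ndufs7, an iron-sulfur subunit near the quinone site, stood at 133 and 136 CPM in Mettl3-/- stem cells, against 93.7 and 93.6 CPM in wild type. Both knockout libraries lay above both wild-type libraries, and the change was 0.52 ± 0.11 on the log2 scale (SE, adjusted p = 0.00181). Ndufc2, an accessory membrane subunit, had 138 and 142 CPM in Mettl3-/- cells, against 108 and 106 CPM in wild type (log2 0.39, adjusted p = 0.0202). The accessory subunits Ndufb11, Ndufa7 and Ndufb7 went the other way without overlap. Ndufb11, the X-linked membrane-arm subunit, had 128 and 124 CPM in Mettl3-/- cells, against 163 and 159.6 CPM in wild type (log2 -0.36, adjusted p = 0.0223). Ndufa7 had 125 and 114 CPM in Mettl3-/- cells, against 143 and 158 CPM in wild type (log2 -0.35, adjusted p = 0.0336). Ndufb7 had 119.9 and 116 CPM in Mettl3-/- cells, against 154 and 144 CPM in wild type (log2 -0.34, adjusted p = 0.0369).

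Complex II links the citric acid cycle to the chain. Sdhd, one of its membrane anchors, had 274 and 241 CPM in Mettl3-/- cells, against 199 and 201 CPM in wild type (log2 0.35 ± 0.09, SE, adjusted p = 0.00323). Sdhb, its iron-sulfur subunit, whose promoter is printed above, had 255 and 248 CPM in Mettl3-/- cells, against 198 and 205 CPM in wild type (log2 0.32 ± 0.09, SE, adjusted p = 0.00956). Neither gene's groups overlapped, and the flavin-binding subunit Sdha was not called, with 186 and 158 CPM in Mettl3-/- cells, against 208 and 185 CPM in wild type. The complex II genes summed to 856 ± 55.7 CPM in Mettl3-/- cells and 777 ± 5.66 CPM in wild type (SD, n = 2 each).

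In complex III, Uqcrfs1, the Rieske iron-sulfur protein, showed one of the clearest changes. It had 283 and 247 CPM in Mettl3-/- cells, against 181 and 185 CPM in wild type (log2 0.51 ± 0.09, SE, adjusted p = 8.47e-06). The gene, at chr13:30540308-30545362 on the minus strand of GRCm38, was lowest in wild type among all the stem cell groups. The small subunit Uqcrq had 131 and 142 CPM in Mettl3-/- cells, against 108 and 95.4 CPM in wild type (log2 0.43, adjusted p = 0.00962).

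In complex IV the testis-type Cox6b2 fell. It had 123 and 121 CPM in Mettl3-/- cells, against 206 and 204 CPM in wild type, which is 122 ± 1.79 and 205 ± 1.5 CPM (SD, n = 2 each), a log2 change of -0.75 ± 0.11 (SE, adjusted p = 2.75e-08). Both Mettl3-/- libraries lay below both wild-type libraries. An SD from 2 libraries can come out smaller than the counting error, so the SE of the log2 change is the better guide to precision here. Its partner Cox6b1 was not called, with 273 and 220.2 CPM in Mettl3-/- cells, against 233 and 216 CPM in wild type. Cox7b2, the other testis-type form that fell, was scarce: 6.57 and 3.51 CPM in Mettl3-/- cells, against 13.5 and 11.6 CPM in wild type (log2 -1.36 ± 0.50, SE, adjusted p = 0.0442). These values rest on 4 and 3 counts in Mettl3-/- cells, against 15 and 13 counts in wild type. The called rises in complex IV were those of Cox5a, Cox6c, Cox4i1 and Cox8a, none of them the partner of Cox6b2 or Cox7b2. Cox5a, which forms part of the matrix side of the complex, had 212 and 204 CPM in Mettl3-/- cells, against 159 and 168 CPM in wild type (log2 0.34, adjusted p = 0.0115). Cox6c had 172 and 191 CPM in Mettl3-/- cells, against 145 and 140.0 CPM in wild type (log2 0.36, adjusted p = 0.0118). Cox4i1, the form of subunit 4 used in most tissues, rose by 0.25 (adjusted p = 0.0203), and Cox8a, the ubiquitous subunit 8, rose by 0.25 (adjusted p = 0.0486), each with no overlap.

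The genes with an Atp5 name gave 2 calls in Mettl3-/- cells, Atp5c1 and the assembly-related Atp5sl, which was taken by its name. Atp5c1, the gamma subunit of its central stalk, had 476 and 453 CPM in Mettl3-/- cells, against 404 and 412 CPM in wild type (log2 0.18, adjusted p = 0.0436), and Atp5sl had 112 and 119 CPM in Mettl3-/- cells, against 83.8 and 85.6 CPM in wild type (log2 0.46, adjusted p = 0.0131). Atp5b, the catalytic beta subunit, had 654 and 547 CPM in Mettl3-/- cells, against 598 and 578 CPM in wild type, and was not called (log2 0.01, adjusted p = 0.934). Only Cox6b2 and Uqcrfs1 of the 17 calls held under each alternative setting, and DESeq2 called these 2 alone (adjusted p = 0.0031 and 0.0166), while the other 15 were not called by DESeq2.

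**Figure D2:**
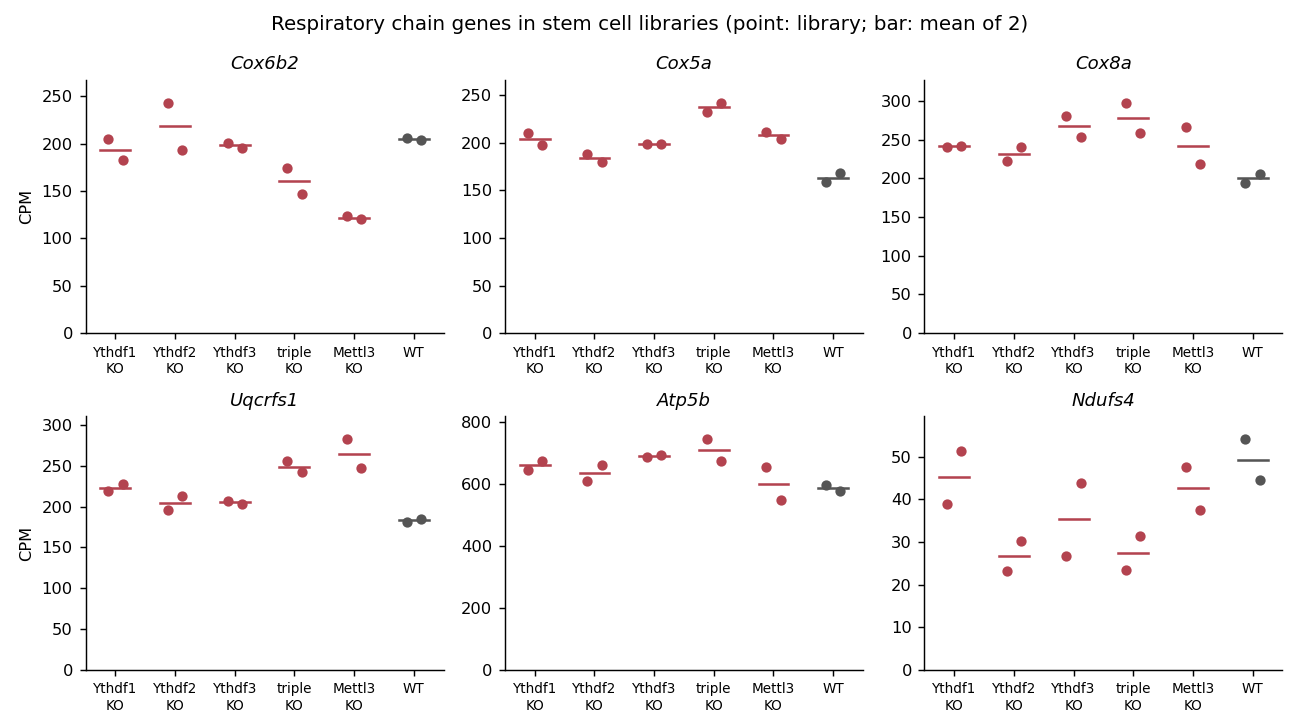
CPM of 6 respiratory genes in each stem cell library, with the knockout groups left of wild type; each point is a library and each bar the mean of 2. Cox6b2 was lowest in Mettl3-/- cells, Cox5a and Cox8a had their highest means in the triple knockout, and Ndufs4 was low in Ythdf2-/- and triple knockout cells.

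In the Ythdf triple knockout, 5 respiratory genes rose and 4 fell (11.2%), against 25.1% of all genes (13.3% up and 11.8% down). Cox5a had 232 and 242 CPM in triple knockout cells, against 159 and 168 CPM in wild type (log2 0.54 ± 0.09, SE, adjusted p = 2.16e-05). Cox8a had 298 and 259 CPM in triple knockout cells, against 195 and 206 CPM in wild type (log2 0.47 ± 0.09, SE, adjusted p = 6.69e-05). Uqcrfs1 had 256 and 242 CPM in triple knockout cells, against 181 and 185 CPM in wild type (log2 0.44 ± 0.09, SE, adjusted p = 0.000441). These 3, like Atp5b at 744 and 675 CPM in triple knockout cells against 598 and 578 CPM in wild type (log2 0.27, adjusted p = 0.00108), lay above wild type in both libraries. Ndufa10, an accessory complex I subunit, had 452 and 494 CPM in triple knockout cells, against 390.1 and 421 CPM in wild type (log2 0.23, adjusted p = 0.0137).

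The 4 that fell in the triple knockout were Ndufs4, Ndufa7, Sdha and Cox6b2. Ndufs4, an accessory subunit of the NADH-oxidising arm whose loss in mice gives a Leigh-like disease, had 23.4 and 31.5 CPM in triple knockout cells, against 54.1 and 44.6 CPM in wild type (log2 -0.83 ± 0.23, SE, adjusted p = 0.00937). Cox6b2 had 175 and 146 CPM in triple knockout cells, against 206 and 204 CPM in wild type (log2 -0.36, adjusted p = 0.0119). Sdha fell by 0.30 (adjusted p = 0.0473) and Ndufa7 by 0.35 (adjusted p = 0.0422). All 4 lay below wild type in both libraries. Of the 9 calls, only Cox5a was also called by DESeq2 (adjusted p = 0.0305), and only the calls of Cox5a, Uqcrfs1 and Cox8a held without each library in turn. Markers of the 2-cell embryo stage, all 7 of them in the table, summed to 700.3 and 703.6 CPM in triple knockout cells, 345 and 390.3 CPM in Ythdf1-/- cells, 78.9 and 74.5 CPM in Ythdf2-/- cells, 194 and 183 CPM in Ythdf3-/- cells and 44.4 and 44.5 CPM in Mettl3-/- cells, against 34.2 and 31.2 CPM in wild type, and 3 Sertoli markers, of 6 in the list, to 326 and 299.8 CPM in triple knockout cells, against 77.5 and 74.0 CPM in wild type. The part of either list in the stem cell results was not tested.

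The single reader knockouts moved few respiratory genes. In Ythdf1-/- cells 2 rose and 1 fell (3.75%), against 3.45% of all genes. Ndufa4l2, a form of Ndufa4 known to be induced by hypoxia, had 10.0 and 18.6 CPM in Ythdf1-/- cells, against 34.2 and 34.8 CPM in wild type (log2 -1.26 ± 0.29, SE, adjusted p = 0.00327), but the call was lost without Ythdf1-/- library A (adjusted p = 0.246). Cox7c, a small complex IV subunit, had 152 and 146 CPM in Ythdf1-/- cells, against 108 and 114 CPM in wild type (log2 0.43, adjusted p = 0.0283). Cox4i1 had 338 and 321 CPM in Ythdf1-/- cells, against 256 and 288 CPM in wild type (log2 0.28, adjusted p = 0.0311). The knockout libraries lay outside the wild-type range for all 3.

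In Ythdf2-/- cells the only respiratory call (1.25%, against 1.91% of all genes) was Ndufs4, with 23.3 and 30.3 CPM in Ythdf2-/- cells, against 54.1 and 44.6 CPM in wild type (log2 -0.87 ± 0.22, SE, adjusted p = 0.0281). In Ythdf3-/- cells 2 genes rose (2.5%, against 2.84% of all genes). Cox8a had 281 and 254 CPM in Ythdf3-/- cells, against 195 and 206 CPM in wild type (log2 0.41, adjusted p = 0.00639), and Atp5b had 688 and 695 CPM in Ythdf3-/- cells, against 598 and 578 CPM in wild type (log2 0.23, adjusted p = 0.028). Ndufs4 was not called in Ythdf3-/- cells, with 26.8 and 43.9 CPM. DESeq2 called none of the respiratory genes in the 3 single knockouts, and each of the 6 calls was lost without at least 1 library.

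Many small shifts without a call pointed upward in the single knockouts. In Ythdf1-/- cells both libraries lay above both wild-type libraries for 38 of 80 respiratory genes and below for 4, against 25.3% above and 25.6% below over all genes. The counts were 26 above and 5 below in Ythdf2-/- cells (all genes 23.1% and 23.2%) and 33 above and 6 below in Ythdf3-/- cells (all genes 25.5% and 25.6%). They were 30 above and 22 below in the triple knockout (all genes 33.7% and 33.7%) and 27 above and 12 below in Mettl3-/- cells (all genes 33.8% and 33.7%). All 5 comparisons use the same 2 wild-type libraries, so these counts are not separate observations.

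Set directly against each other, so that wild type drops out, the triple knockout and Mettl3-/- cells differed in 6 respiratory genes (7.5%), 3 higher and 3 lower in the triple knockout, against 19% of all genes (10.5% higher and 8.5% lower). Higher in the triple knockout were Atp5b (log2 0.26, adjusted p = 0.0053), Cox6b2 (log2 0.39, adjusted p = 0.04) and Cox7b2, with 18.7 and 15.1 CPM in triple knockout cells, against 6.57 and 3.51 CPM in Mettl3-/- cells (log2 1.78, adjusted p = 0.0122). Lower were Ndufc2 (log2 -0.47, adjusted p = 0.0204), Sdhb (log2 -0.39, adjusted p = 0.00736) and Cox5b, with 176 and 188 CPM in triple knockout cells, against 233 and 254 CPM in Mettl3-/- cells (log2 -0.43, adjusted p = 0.00305). DESeq2 called none of these 6, and each was lost without at least 1 library.

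Genes that serve the chain without being subunits were counted in lists of assembly factors, citric acid cycle enzymes and regulators of mitochondrial biogenesis. In Mettl3-/- stem cells the complex I assembly list had 3 of 13 tested genes up and 1 down, a share near the 30.4% of all genes called there. Tmem70, needed for complex I and ATP synthase assembly, stood at 139 ± 15.4 CPM in Mettl3-/- cells and 68.5 ± 5.2 CPM in wild type (SD, n = 2 each), a log2 change of 0.99 (adjusted p = 3.67e-09), and Tmem186 stood at 41.4 ± 14.4 CPM in Mettl3-/- cells and 103.1 ± 7.09 CPM in wild type (SD, n = 2 each), a log2 change of -1.26 (adjusted p = 1.63e-09). The complex IV assembly list had 4 of 20 up and 1 down, and the regulators 2 of 13 up (Ppargc1b, Pprc1) and 1 down (Polg2), shares that do not stand above that of all genes. Of the citric acid cycle enzymes, Dld rose by 0.51 (adjusted p = 0.000115) and Ogdh fell by 1.13 (adjusted p = 0.00553). In the triple knockout Tmem70 rose by 0.73 and Tmem186 fell by 0.62, and Ogdh, a subunit of the 2-oxoglutarate dehydrogenase complex, fell by 1.35 (adjusted p = 0.00198). Ogdh also fell by 1.16 in Ythdf3-/- cells (adjusted p = 0.0402), the only call of these lists in the single knockouts. DESeq2 did not call Ogdh in Ythdf3-/-, triple knockout (adjusted p = 0.171) or Mettl3-/- cells (adjusted p = 0.218). These comparisons share the same 2 wild-type libraries.

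In Mettl3 conditional knockout GV oocytes, 8 respiratory genes rose and none fell in the main edgeR fit. Other edgeR settings on the same libraries also called falls: 1 with RLE scaling and 3 with a block for replicate number. DESeq2 called the same 8 and 4 more, of which Atp5s rose and Atp5g2, Cox4i2 and Cox6a2 fell. The 8 were Ndufa4, Ndufa1 and Ndufa11 of the Nduf genes, Uqcrc1 and Uqcr11 of complex III, and Cox6b2, Cox8c and Cox6c of complex IV. The testis-type Cox6b2 and Cox8c, low in control oocytes, were among the largest rises. The main edgeR fit called no gene of complex II or ATP synthase. The 8 genes are 10% of those tested, against 28.8% of all genes (15.4% up and 13.4% down). The median log2 change of the respiratory genes was 0.11, against 0.04 over all genes, and had no stable sign, being -0.03 without knockout library 2 and -0.01 without control library 4.

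Ndufa4 had 459, 633 and 513 CPM in conditional knockout oocytes, against 196, 261, 299 and 198 CPM in controls (log2 1.17 ± 0.22, SE, adjusted p = 0.00424). Ndufa1, an X-linked accessory subunit essential for complex I, had 168, 239 and 259 CPM in conditional knockout oocytes, against 109, 102, 135 and 97.03 CPM in controls (log2 1.00 ± 0.22, SE, adjusted p = 0.00826). Ndufa11, a membrane-arm subunit, had 196, 247 and 218 CPM in conditional knockout oocytes, against 140.2, 123, 143 and 116 CPM in controls (log2 0.76 ± 0.18, SE, adjusted p = 0.0138). For all 3 the lowest knockout library lay above the highest control. Ndufs4, which fell in Ythdf2-/- and triple knockout but not in Mettl3-/- stem cells by the test, was not called here, with 90.4, 134 and 109 CPM in conditional knockout oocytes, against 122, 167, 304 and 106 CPM in controls.

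In complex III, Uqcr11, a small accessory subunit, had 139.6, 174 and 163 CPM in conditional knockout oocytes, against 85.2, 72.2, 115 and 68.3 CPM in controls (log2 0.90, adjusted p = 0.0164). Uqcrc1, a core subunit on the matrix side, had 134, 95.8 and 39.5 CPM in conditional knockout oocytes, against 41.0, 27.4, 30.9 and 27.0 CPM in controls (log2 1.51 ± 0.37, SE, adjusted p = 0.0146). The groups did not overlap for Uqcr11, but knockout library 3 of Uqcrc1 lay within the control range. Uqcrfs1 had 159.5, 165 and 143 CPM in conditional knockout oocytes, against 95.1, 97.5, 131 and 93.5 CPM in controls, which did not overlap but missed the threshold (adjusted p = 0.0515). The complex III genes summed to 1373 ± 74.8 CPM in conditional knockout oocytes (SD, n = 3) and 1020 ± 245 CPM in controls (SD, n = 4).

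In complex IV, Cox6b2 had 55.6, 66.8 and 99.4 CPM in conditional knockout oocytes, against 29.3, 28.3, 22.5 and 24.4 CPM in controls (log2 1.5 ± 0.25, SE, adjusted p = 0.0028). Cox8c had 5.31, 7.91 and 9.76 CPM in conditional knockout oocytes, against 1.81, 0.856, 0.84 and 0.655 CPM in controls (log2 2.84 ± 0.49, SE, adjusted p = 0.0031). Cox6c had 363, 426 and 459.9 CPM in conditional knockout oocytes, against 162, 193, 295 and 148 CPM in controls (log2 1.06 ± 0.25, SE, adjusted p = 0.0134). None of the 3 overlapped. The partners of the testis-type forms were not called: Cox6b1 had 157, 198 and 222 CPM in conditional knockout oocytes, against 114, 147, 259.6 and 106 CPM in controls, and Cox8a had 105, 132 and 130.1 CPM in conditional knockout oocytes, against 102, 154, 207 and 89.6 CPM in controls.

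**Figure D3:**
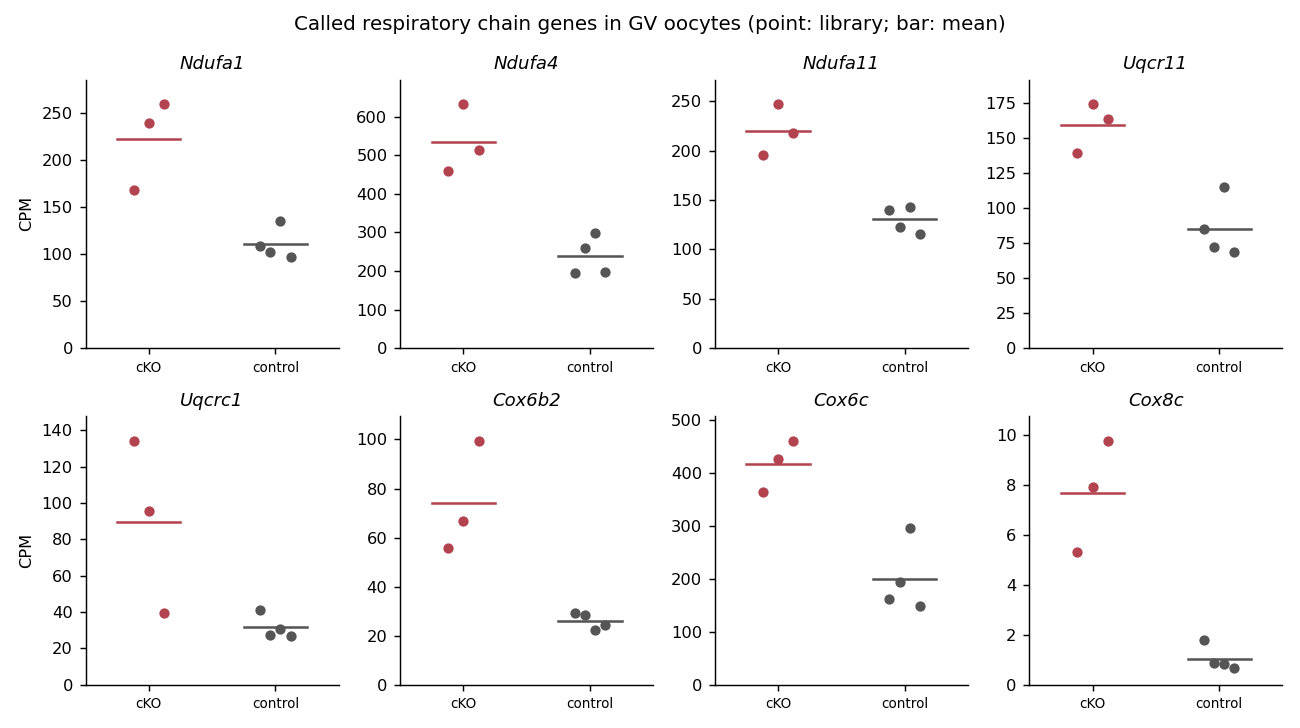
CPM of the 8 called respiratory genes in each GV oocyte library, conditional knockout at the left and control at the right of each panel, with a point for each library and a bar for the mean. The groups did not overlap for 7 of the 8 genes, and for Uqcrc1 knockout library 3, at 39.5 CPM, lay within the control range.

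For 11 of the 80 genes every conditional knockout library lay above every control, and for 3 every one lay below, against 21% above and 18.3% below over all genes. The calls of Ndufa4, Cox6b2 and Cox8c held under each alternative, while those of Ndufa1, Ndufa11, Uqcrc1, Uqcr11 and Cox6c were each lost without at least 1 library, knockout library 2 in every case (adjusted p = 0.0515 to 0.087 without it). Granulosa and cumulus markers, of which 7 of 8 are in the table, moved with genotype: they summed to 19.1, 152 and 46.4 CPM in conditional knockout oocytes, against 216, 482, 1030 and 228 CPM in controls, with Fshr at 0 in knockout library 1. Without control libraries 2 and 3, which were high for these markers, 11 respiratory genes rose and none fell, of which 6 were among the 8, while Ndufa11 and Uqcrc1 were lost and 5 others were gained. The part of the granulosa and cumulus signal in these results was not tested, and in bulk libraries fewer cells of a type and less RNA per cell cannot be told apart.

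Among genes that serve the chain in GV oocytes, Tfam, which packages and transcribes mitochondrial DNA, stood at 152 ± 12.4 CPM in conditional knockout oocytes (SD, n = 3) and 54.0 ± 8.47 CPM in controls (SD, n = 4), a log2 change of 1.5 (adjusted p = 0.0011). Tfam and Pprc1 were the 2 of 13 regulators that rose, and none fell. Of the complex IV assembly list 4 of 19 rose (Coa5, Sco1, Coa3 and Cox11) and none fell, and neither count is read as a result about its list beside the 28.8% of all genes called (15.4% up). Ndufaf3 of complex I assembly (log2 0.82, adjusted p = 0.0256) and Sdhaf2 of complex II assembly (log2 0.74, adjusted p = 0.0394) also rose. So did Bcs1l, which inserts the Rieske protein into complex III (log2 1.38). Tmem186 (log2 -1.08) and Cycs, the somatic cytochrome c (log2 -0.86, adjusted p = 0.0326), fell. Of 13 alternatives, 7 lost the call of Sdhaf2, with RLE scaling among them, 5 that of Ndufaf3, 5 that of Cycs and 1 that of Tmem186. No citric acid cycle gene of 14 was called.

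In Ythdf2-/- post-GV oocytes no respiratory gene was called, nor was any gene of the table (0%). At an unadjusted p under 0.05 edgeR had 782 genes, none of them respiratory, and DESeq2 called 94 genes, none respiratory. The respiratory genes had a median log2 change of -0.85, against -0.09 over all genes, with 68 of 81 negative, and this value varied with library and batch. No label gives a batch, so batches were inferred from the difference between the authors' batch-adjusted and normalized columns. That difference correlated at 0.835 or more within an inferred batch and at -0.914 or less between batches. It put Ythdf2-/- library 1 with Ythdf2+/- libraries 1 and 2 in one batch, and Ythdf2-/- library 2 with Ythdf2+/- library 3 in another. Complex I genes summed to 1647 and 942 CPM in Ythdf2-/- oocytes, against 1695, 2488 and 864 CPM in Ythdf2+/- oocytes. Complex III genes summed to 496 and 178 CPM in Ythdf2-/- oocytes, against 548, 798 and 285 CPM in Ythdf2+/- oocytes. The library of the second batch was low in each genotype.

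**Figure D4:**
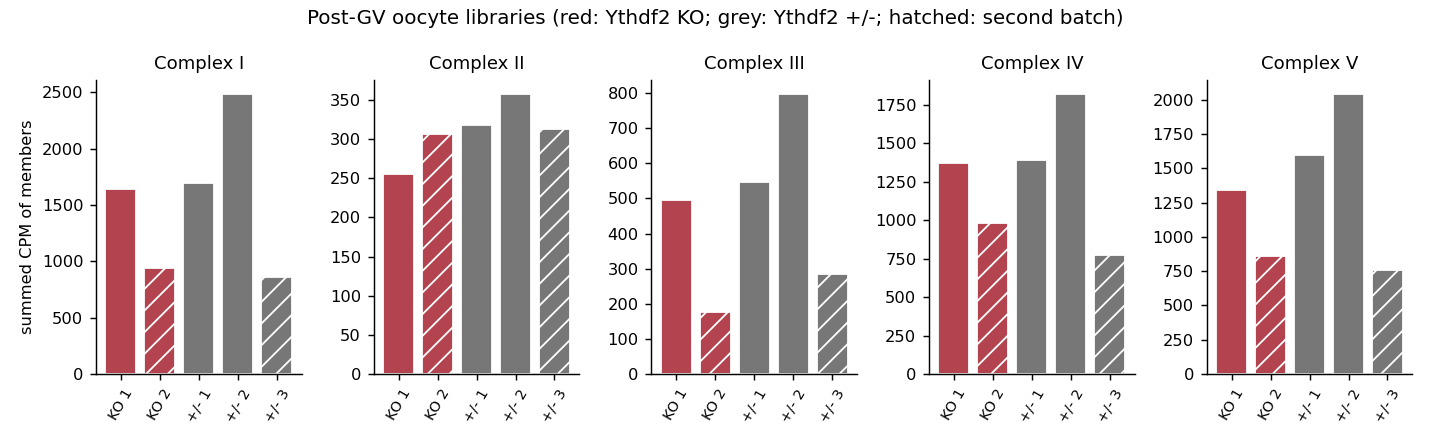
Summed CPM of the respiratory genes of each complex in the 5 post-GV oocyte libraries, Ythdf2-/- in red left of Ythdf2+/- in grey, with the inferred second batch hatched. Sums of complexes I, III, IV and V were low in the second batch in both genotypes. The complex II sum, between 256 and 358 CPM, was not, but its genes Sdhb, Sdhc and Sdhd were lower there and Sdha higher.

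Within the first batch the median log2 difference, Ythdf2-/- minus Ythdf2+/-, was -0.54 over the 83 genes, with 14 positive and 69 negative. Within the second batch it was -0.04, with 38 positive and 43 negative. Between batches, the second minus the first, it was -1.54 in Ythdf2-/- and -2.18 in Ythdf2+/- oocytes. Without Ythdf2-/- library 1, Ythdf2-/- library 2 or Ythdf2+/- library 2 the median change between genotypes was -2.10, -0.19 or -0.22, so its size changed with the libraries kept. With batch as a term in the fit 258 genes of the table were called, none of them respiratory, and 21 of 81 respiratory genes had an unadjusted p under 0.05, as did 2315 of all 13910 genes tested.

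Single genes showed the split by batch. Ndufs7 had 21.6 and 1.09 CPM in Ythdf2-/- oocytes, against 32.6, 44.0 and 3.71 CPM in Ythdf2+/- oocytes. Sdhb had 50.6 and 8.76 CPM in Ythdf2-/- oocytes, against 48.8, 83.5 and 8.24 CPM in Ythdf2+/- oocytes, while Sdha went the other way with 119 and 259.5 CPM in Ythdf2-/- oocytes, against 179, 135 and 270.1 CPM in Ythdf2+/- oocytes. Of the complex II genes, Sdhb, Sdhc and Sdhd were lower and Sdha higher in the second batch than in the first, in each genotype. Ndufa4 was an exception, with 218 and 192 CPM in Ythdf2-/- oocytes, against 107, 132 and 44.9 CPM in Ythdf2+/- oocytes. It was higher in Ythdf2-/- within both batches, by 0.88 and 2.08 on the log2 scale, but missed the threshold with a batch term (adjusted p = 0.0563) and without one (adjusted p = 0.848). Cox6b2 had 66.2 and 63.7 CPM in Ythdf2-/- oocytes, against 50.9, 34.2 and 38.5 CPM in Ythdf2+/- oocytes, and was higher within both batches by 0.66 and 0.72 without being called (adjusted p = 0.848). Steroidogenic markers of the Leydig list, of which 4 of 6 are in the table, summed to 943 and 35.4 CPM in Ythdf2-/- oocytes, against 1807, 3415 and 48.3 CPM in Ythdf2+/- oocytes, with Lhcgr at 0 in Ythdf2+/- library 3, so they too were low in the second batch. Oocyte markers, all 8 of them in the table, summed to 9555 and 9642 CPM in Ythdf2-/- oocytes, against 6446, 3906 and 5583 CPM in Ythdf2+/- oocytes, and did not overlap. The part of either list in the result was not tested.

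In Ythdf2-/- round spermatids, 2 respiratory genes fell against the single Ythdf2+/+ library and none rose (2.47%, against 4.9% of all genes, 2.25% up and 2.64% down). Ndufc2 had 9.68 and 10.1 CPM in Ythdf2-/- spermatids, against 26.6 CPM in Ythdf2+/+ spermatids (log2 -1.43 ± 0.37, SE, adjusted p = 0.00816), and DESeq2 called it as well. Cox6b2 had 161 and 106 CPM in Ythdf2-/- spermatids, against 243 CPM in Ythdf2+/+ spermatids (log2 -0.87 ± 0.24, SE, adjusted p = 0.0186), and was not called by DESeq2 (adjusted p = 0.12) or among genes over 5 CPM (adjusted p = 0.108). Both knockout libraries lay below the Ythdf2+/+ library for both genes. With 1 library on that side, its spread is assumed equal to that of the knockout.

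Most other respiratory genes were slightly lower without being called. Both Ythdf2-/- libraries lay below the Ythdf2+/+ library for 47 of 81 genes and above it for 9, against 36.1% below and 38.8% above over all genes. The median log2 change was -0.14, against 0.08 over all genes. Cox8c had 119.7 and 42.9 CPM in Ythdf2-/- spermatids, against 201 CPM in Ythdf2+/+ spermatids, with the knockout libraries themselves far apart (log2 -1.31 ± 0.99, SE, adjusted p = 0.694). Cox7b2 had 450.1 and 449.7 CPM in Ythdf2-/- spermatids, against 495 CPM in Ythdf2+/+ spermatids. Sdha had 109 and 67.1 CPM in Ythdf2-/- spermatids, against 148 CPM in Ythdf2+/+ spermatids (adjusted p = 0.0711). Of the genes that serve the chain, Polg, the mitochondrial DNA polymerase (log2 -1.05), Dlst of the citric acid cycle (log2 -1.06) and Cox10, which makes haem for complex IV (log2 -1.79, adjusted p = 0.00986), fell. Round spermatid markers summed to 13780 and 9513 CPM in Ythdf2-/- spermatids, against 8136 CPM in Ythdf2+/+ spermatids, and spermatocyte markers, 7 of 8 in the table, to 835 and 733 CPM in Ythdf2-/- spermatids, against 1040 CPM in Ythdf2+/+ spermatids. Their part in these values was not tested.

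In spermatids, transcripts of Cox6b2, Cox7b2 and Cox8c far exceeded those of their somatic partners, unlike in the other cells where analysed. Per kilobase of exon, the leading respiratory genes of Ythdf2+/+ spermatids were Cox7b2 at 913 CPM per kb, Cox8c at 440 CPM per kb, Ndufv2 at 264 CPM per kb and Cox6b2 at 219.8 CPM per kb. The somatic partners Cox7b, Cox8a and Cox6b1 stood at 0.342, 4.39 and 5.28 CPM per kb in the same library. In wild-type stem cells Cox8a at 323.5 ± 13 and Cox6b1 at 317 ± 17.5 CPM per kb (SD, n = 2) were among the highest. Ndufa4 was at 0.301 CPM per kb in Ythdf2+/+ spermatids. The X-linked genes were also near the bottom there: Cox7b had 0.317 and 1.26 CPM in Ythdf2-/- spermatids, against 0.416 CPM in Ythdf2+/+ spermatids. Ndufb11 had 1.00 and 0.477 CPM in Ythdf2-/- spermatids, against 0.703 CPM in Ythdf2+/+ spermatids, and Ndufa1 had 1.11 and 1.04 CPM in Ythdf2-/- spermatids, against 0.927 CPM in Ythdf2+/+ spermatids. None of the 3 was called, and levels are compared between genes only within a library.

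The testis-type forms were followed as a share, per kilobase, of the form plus its somatic partner. In spermatids Cox7b2 made up 99.97% and 99.88% of Cox7b2 plus Cox7b in Ythdf2-/- and 99.96% in Ythdf2+/+. Cox6b2 made up 96.58% and 96.11% in Ythdf2-/- and 97.65% in Ythdf2+/+. On raw counts the Ythdf2+/+ share of Cox6b2 was 98.49%, with a 95% Wilson interval of 98.19% to 98.74% that covers counting error only. Cox8c made up 98.93% and 94.55% of Cox8c plus Cox8a in Ythdf2-/- and 99.01% in Ythdf2+/+. Nearly all of each of these pairs was the testis-type form in both genotypes. The other complex IV pairs differed: in Ythdf2+/+ spermatids Cox4i2 took 0.5984%, Cox7a1 0.1076% and Cox6a2 16.08% of the form plus its partner.

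In stem cells Cox6b2 took 22.4% and 25.93% of Cox6b2 plus Cox6b1 in Mettl3-/- cells, 31.73% and 31.31% in the triple knockout, 33.63% and 33.48% in Ythdf1-/- cells, 39.5% and 32.43% in Ythdf2-/- cells, 33.24% and 31.96% in Ythdf3-/- cells, and 36.1% and 37.68% in wild type. The Mettl3-/- libraries lay below all others, the triple, Ythdf1-/- and Ythdf3-/- libraries lay below wild type, and Ythdf2-/- overlapped it. In GV oocytes Cox6b2 took 18.46%, 17.76% and 22.24% in the Mettl3 conditional knockout, against 14.08%, 10.92%, 5.238% and 12.82% in controls. The share was higher in each knockout library than in any control. Cox8c took 6.377%, 7.511% and 9.21% of Cox8c plus Cox8a in conditional knockout oocytes, against 2.344%, 0.7464%, 0.5445% and 0.9779% in controls. In post-GV oocytes the share of Cox6b2 was 27.49% and 57.36% in Ythdf2-/-, against 23.82%, 11.14% and 57.47% in Ythdf2+/-, and the 2 libraries of the second batch were the high ones. These shares were not tested.

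The remaining tissue forms moved little or were scarce. Cox7a1, the heart and muscle form of subunit 7a, was well expressed in stem cells, with 47.6 and 37.5 CPM in Mettl3-/- cells, 43.7 and 37.0 CPM in the triple knockout and 51.3 and 46.4 CPM in wild type. It took 40.4% to 44.0% of Cox7a1 plus Cox7a2 on average in each of the 6 stem cell groups and was called in none. Cox4i2, the lung form of subunit 4, was called in no comparison by the main edgeR fit. It had 1.68, 2.83 and 1.05 CPM in Mettl3 conditional knockout GV oocytes, against 3.82, 5.99, 16.6 and 2.43 CPM in controls, which overlapped (log2 -1.92 ± 0.71, SE, adjusted p = 0.0658). With a block for replicate number, or without control library 1 or control library 4, edgeR called it lower. Cox6a2, the other muscle form, had 4.19, 5.98 and 7.36 CPM in conditional knockout oocytes, against 9.86, 11.1, 9.44 and 8.14 CPM in controls, with no overlap and no call (log2 -0.73, adjusted p = 0.139). Ndufa4l2 made up 91.24% and 95.3% of Ndufa4l2 plus Ndufa4 in Ythdf2-/- spermatids and 97.65% in Ythdf2+/+ spermatids, where Ndufa4 itself was nearly silent. In complexes without a call in GV oocytes, the lowest p belonged to Sdhc, with 157, 126 and 105 CPM in conditional knockout oocytes, against 123, 107, 90.6 and 101 CPM in controls (adjusted p = 0.32), and to Atp5s, with 26.2, 23.0 and 18.2 CPM in conditional knockout oocytes, against 13.5, 10.3, 16.5 and 11.5 CPM in controls (adjusted p = 0.0594). DESeq2 did call Cox4i2, Cox6a2 and Atp5s in these oocytes.

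**Figure D5:**
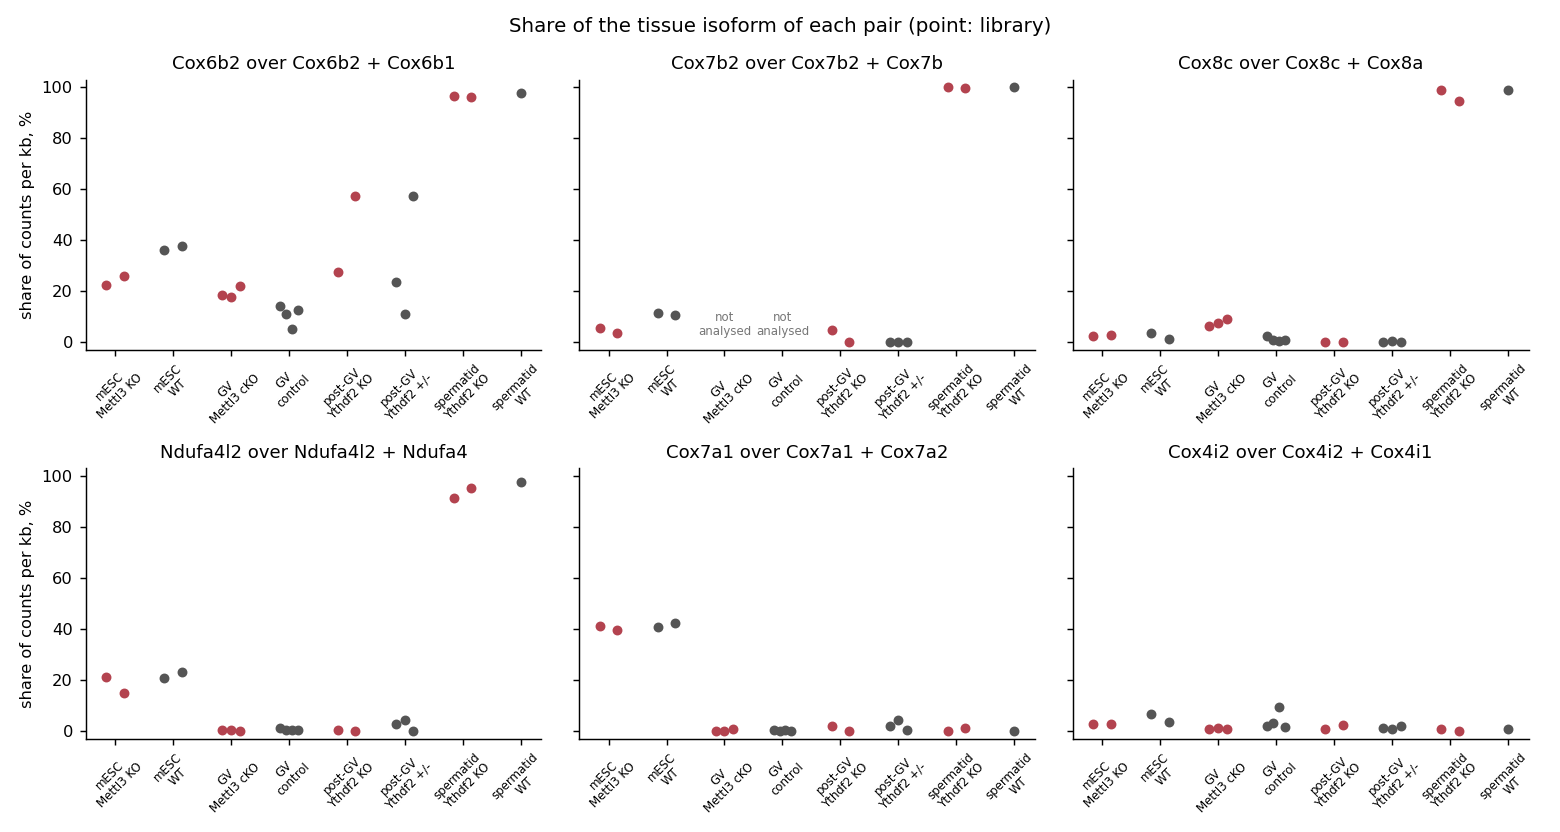
Share per kilobase, in percent, of a tissue form in the sum of that form and its widely expressed partner, with a point for each library; in each pair of columns the knockout is left of its control, and Cox7b2 in GV oocytes was not analysed. Cox7b2, Cox8c and Cox6b2 took over 94% of their pairs in spermatids, and the share of Cox6b2 was lower in Mettl3-/- stem cells than in wild type and higher in Mettl3 conditional knockout GV oocytes than in controls.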

How the data were processed

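The authors deposited raw counts per gene in 4 tables for 27 libraries, and normalized values for post-GV oocytes. CASAVA 1.8.2, cutadapt, STAR 2.4.2a, DESeq2 and mm10 are named per the submitters' processing notes, while none of these sources gives the counter, its strand setting or the annotation. The deposited normalized signal and the authors' batch-adjusted log2 values of post-GV oocytes were used only to infer the batch of each library. All per-sample columns matched a sample. Members and gene lists were chosen with earlier results of these data known. The respiratory genes are 83 symbols matched by rule, and all tests ran on whole tables.

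Counts were tested with edgeR 4.0.16 in R 4.3.3 (TMM scaling, low counts removed by filterByExpr, robust quasi-likelihood test), with 1 fit for all 12 stem cell libraries and 1 for each other table, and with p-values adjusted by Benjamini-Hochberg over the genes tested. Intervals of log2 changes are SEs, and CPM values use TMM library sizes. Alternatives were DESeq2 1.42.0, RLE scaling, no filter, a filter of 5 CPM, the compared groups alone, a replicate block, leaving out each library, and GV oocytes without control libraries 2 and 3. A batch term and the first batch alone in post-GV oocytes were chosen after seeing the data. Stem cell libraries A and B are not said to come from separate cultures, so p-values may measure technical spread. One post-GV title repeats replicate 2, and its bracketed name gives 3. Genes named are the targeted gene, up to 3 called members per complex and direction, the tissue isoforms and up to 2 called genes per pathway list and direction; other genes named were chosen after their values were seen. A citric acid cycle result in stem cells is not reported here. Gene positions and lengths are from GENCODE M21, in which 82 of the 83 genes were found, and copies were sought with BLAST 2.17.0+ (97% identity over 50% of the transcript). The main edgeR fit was tried on simulated counts in the layout of each table, in stem cells for the triple knockout only. The alternative fits were not tried in this way.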

Additional observations from a re-analysis of the deposited data

Results flagged for a closer look

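Cox6b2, the testis-type subunit of complex IV, had log2 changes of opposite sign between cell types. Its log2 change was -0.75 in Mettl3-/- stem cells against wild type and 1.5 in Mettl3 conditional knockout GV oocytes against controls, with every knockout library on that side of its controls in both. In Ythdf2-/- cells its log2 change was 0.66 in post-GV oocytes, not called but with every Ythdf2-/- library above every Ythdf2+/- library, and -0.87 in round spermatids, where both Ythdf2-/- libraries lay below the single Ythdf2+/+ library. The spermatid call was lost with DESeq2 (adjusted p = 0.12) and among genes over 5 CPM (adjusted p = 0.108). The differences between cell types were not tested, since the cells were counted in separate tables. In 18 measures over the 4 GV oocyte controls, none passed Dixon's 95% critical value, the closest being Cox8c with a ratio of 0.825 just under it. Control library 3 nonetheless had the highest Cox4i2, at 16.6 CPM.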

How the results depend on the processing

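No call changed direction under any alternative. Of the 94 called values named, 17 held throughout and 77 were lost under at least 1 alternative; of the 56 not called, 14 changed sign and 4 were called under some alternative. DESeq2 called 0 respiratory genes in Ythdf1-/-, 0 in Ythdf2-/- and 0 in Ythdf3-/- stem cells, 1 in the triple knockout, 2 in Mettl3-/- cells, 0 between these last groups and 1 in spermatids; it also called fewer of all genes in those comparisons (684 against 2996 in the triple knockout and 1156 against 3630 in Mettl3-/- cells). In GV oocytes it called 12, of which 9 rose and 3 fell. With genes over 5 CPM, 1 was called in spermatids, and with no filter 3, adding Cox8c; the cause was not tested. Without each library in turn the count ran from 0 to 2 in Ythdf1-/-, 0 to 1 in Ythdf2-/-, 0 to 1 in Ythdf3-/-, 5 to 10 in the triple knockout, 5 to 9 in Mettl3-/- cells, 0 to 5 between the last 2 groups, 3 to 15 in GV oocytes (3 without knockout library 2, 5 without control 2 and 15 without control 3) and 0 in post-GV oocytes. With 1 library left in a group, it was assumed to vary like the others.

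What same-numbered libraries share beyond the number was not given. In GV oocytes residual r was 0.455, 0.0956 and 0.261 between knockout and control libraries of the same number. It ran from -0.394 to 0.116 between those of different numbers, and a shared origin was not tested. With a replicate block the counts were 3, 1 and 2 in the Ythdf1, Ythdf2 and Ythdf3 knockouts, 9 in the triple knockout, 18 in Mettl3-/- cells, 6 between the last 2 groups, 12 in GV oocytes and 0 in post-GV oocytes. In GV oocytes the block gave 9 up and 3 down, the added genes being Atp5sl, which rose, and Ndufs4, Atp5g2 and Cox4i2, which fell; RLE scaling and leaving out control 1 or control 4 each gave 1 down. Spermatids, with 1 control library, allowed neither. Post-GV oocytes gave 0 calls with a batch term and with the first batch alone, both chosen after seeing the data. Stem cell depth limits genes such as Cox7b2, and sequence copies limit Atp5l and Uqcrb. Some isoform shares depended on the correction for exon length. Without it the mean share in wild-type stem cells was 28.66% instead of 41.47% for Cox7a1 and 47.77% instead of 36.89% for Cox6b2. The share of Cox8c in Ythdf2+/+ spermatids moved little, to 98.67% from 99.01%.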
